A study of Mus musculus with 2 samples.

Results

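Osteochondral and late scar fibroblast genes are genes of cartilage and bone that cardiac fibroblasts can also express after an infarct, together with a transcription factor of activated fibroblasts. The 7 genes described here are Cilp, Mgp, Tnfrsf11b, Sox9, Runx1, Runx2 and Meox1. They were chosen by name and make up 7 of the 15181 genes that appear in the 22 deposited tables, of which 18 describe cell clusters and 4 describe subclusters of the fibroblast cluster. Each of the 4 subcluster tables held 15059 genes and all 7 members.

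The tables came from droplet single-cell RNA sequencing (10x Chromium) of interstitial cells from the cardiac ventricle of mice after myocardial infarction (MI), with 1 library per genotype. The control library came from PostnMCM mice, and the other from mice of genotype Yapfl/fl;Wwtr1fl/+;PostnMCM, which have both alleles of Yap (gene symbol Yap1) and 1 allele of Wwtr1 floxed. Both strains carried PostnMCM, which places a Cre recombinase that tamoxifen switches on under control of Postn, a gene of myofibroblasts, and the R26-eGFP reporter. Both received tamoxifen chow at 0.4 g/kg from the time of MI, and the mice were aged 8 to 10 weeks at surgery. Hearts were taken at 6 days by the labels and 7 days by the study's methods. Postn-driven Cre acts in cells that have switched on Postn, so other interstitial cells of the mutant hearts keep their floxed alleles. How many hearts went into each library was not given in the sources used here. With 1 library per genotype there was no replicate, so every difference below compares those libraries and none was tested. The values are shares of cells with a count of a gene, where a count is an SCTransform-corrected value above 0 and not a raw count. The correction was fitted again for the fibroblast cells alone, so a share in a subcluster and a share in a cluster are on different scales. S100a9 was at 49.7% of control cells in cluster 5 but at 85% or more of control cells in each of the 4 subclusters. The tables give no number of cells per cluster, so no interval was set on a share. By the study's account, subclusters 0, 2 and 4 came mainly from control hearts, subcluster 1 mainly from the mutant hearts, and subclusters 3 and 5 from both. Subclusters 1 and 2 were not analysed here, so the values below leave out the subcluster that came mainly from the mutant hearts.

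YAP and its paralogue TAZ (the product of Wwtr1) are transcriptional co-activators that bind DNA through TEAD factors. In the skeleton, SOX9 directs chondrocyte formation and RUNX2 osteoblast formation, while RUNX1 acts in blood, cartilage and other tissues. RUNX proteins bind DNA with their partner CBFβ. MGP (matrix Gla protein) inhibits calcification, osteoprotegerin (Tnfrsf11b) is a soluble decoy receptor for RANK ligand and TRAIL, and CILP is a matrix protein of cartilage that is also made by cardiac fibroblasts. MEOX1 is a homeobox factor known in activated cardiac fibroblasts. In the mature infarct scar, fibroblasts can take on a matrifibrocyte state that expresses cartilage and tendon matrix genes.

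The members lie apart in the mouse genome. On GRCm39 the transcription factor genes are Sox9 at chr11:112673009-112678586 on the plus strand, Meox1 at chr11:101768336-101785227, Runx1 at chr16:92398354-92623037 and Runx2 at chr17:44806874-45125684, the last 3 on the minus strand. The genes of secreted proteins are Cilp at chr9:65172200-65187888 on the plus strand and, on the minus strand, Mgp at chr6:136849433-136852821 and Tnfrsf11b at chr15:54114015-54142075. RefSeq promoter windows of 250 bases upstream of the start matched 3 of the 7 members, with 1 window each for Cilp and Runx2 and 2 for Runx1. Windows of the RefSeq table were placed on GRCm39 by an exact match, and each matched once. The TEAD motif was searched as GGAATG and its reverse complement CATTCC, and stood in 4153 of 32851 windows (12.6%). Among the member windows it stood in that of the proximal Runx1 start, 55 bases upstream, inside the Runx1 gene and outside its exons. The RUNX motif, searched as TGTGGT and its reverse complement ACCACA, stood in 14% of windows, and among members in those of Cilp and Runx2, both of which overlap annotated exons on GRCm39. The proximal Runx1 window at chr16:92494218-92494467, read on the minus strand, is shown because it holds the motif of the TEAD factors, through which YAP and TAZ act, and the motif is in capitals.
Runx1 proximal: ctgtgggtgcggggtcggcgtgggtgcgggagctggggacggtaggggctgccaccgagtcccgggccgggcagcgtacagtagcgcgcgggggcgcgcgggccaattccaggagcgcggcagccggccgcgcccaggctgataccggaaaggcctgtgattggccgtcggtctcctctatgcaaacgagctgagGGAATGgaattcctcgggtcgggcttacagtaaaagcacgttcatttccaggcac
A match of these letters is a description of the sequence, not a bound site.

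The floxed genes and the marker genes set the frame for the member values. The share of cells with a Yap1 count was higher in the library labelled depleted in 3 of 4 subclusters and lower in the other, with 46.2% of control cells and 56.2% in subcluster 0, 23.3% and 43.5% in subcluster 3, 57.5% and 40% in subcluster 4, and 30.4% and 47.6% in subcluster 5. Wwtr1 was at 80% to 100% of control cells and 60% to 91.3% of cells in the library labelled depleted. A 3' count can come from a transcript of a recombined allele, so these shares do not check the deletion. Of 8 fibroblast markers, Col1a1, Col1a2, Col3a1, Dcn and Sparc had counts in 100% of cells in all 4 subclusters and both libraries. Subclusters 0, 3 and 4 also had high shares of the epicardial and mesothelial gene Wt1 (92.5% to 100%), and low shares of the fibroblast gene Tcf21 (0% to 35%), so these labelled fibroblast subclusters carried epicardial markers. Subcluster 5 was the group with Lum in 100% of cells and Postn in 87% of control cells and 100% in the library labelled depleted. Immune markers were present in the same subclusters. S100a9, a neutrophil gene, had counts in 85% to 96.7% of control cells and 38.1% to 60% in the library labelled depleted, and the summed shares of 5 neutrophil markers were 209 to 255 and 103 to 143. The sums over 6 macrophage markers were 278 to 353 in the control and 191 to 280 in the library labelled depleted, and over 6 lymphocyte markers 21.6 to 35.0 and 33.4 to 50. The corresponding sums were 8.6 to 47.5 and 14.3 to 53.1 for 3 endothelial markers, 20 to 56.5 and 4.8 to 53.1 for 4 mural cell markers, 8.6 to 37.5 and 0 to 13.0 for 2 Schwann cell markers, and 21.6 to 32.5 and 3.1 to 40 for 5 cardiomyocyte markers. The part of these immune and other transcripts in the member values was not tested.

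**Figure D1:**
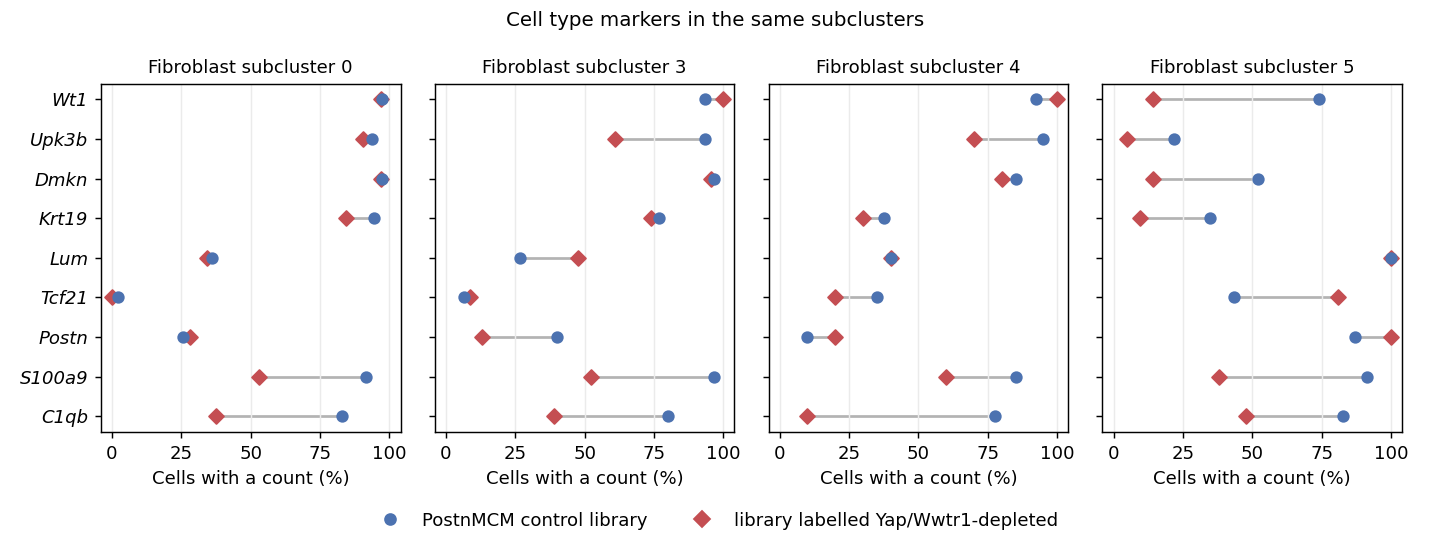
Share of cells with a count (%, x axis) of 9 marker genes in the 4 fibroblast subclusters, with the control library as circles and the library labelled depleted as diamonds, and a grey line joining the pair. S100a9 and C1qb lay lower in the library labelled depleted in all 4 subclusters, while Wt1, Upk3b, Dmkn and Krt19 lay lower in it in subcluster 5, Wt1 at 14.3% against 73.9%.

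The 7 members in 4 subclusters gave 28 pairs of shares. A pair was counted as past the limit where the shares differed by at least 1.5-fold and at least 10% of cells had a count in the higher library. Of the 28 pairs, 21 reached the 10% share. In 4 pairs the share was lower in the library labelled depleted by at least 1.5-fold, in 6 it was higher, and in 11 it did neither. Tnfrsf11b and Runx2 each held 2 of the 4 lower pairs, and Runx1 held 3 of the 6 higher ones, with 1 each for Tnfrsf11b, Sox9 and Runx2. Of 4 eligible members in subcluster 0, 0 were lower and 1 was higher, and across all eligible genes of that subcluster 11.1% were lower and 10.3% higher. In subcluster 3, 2 of 5 were lower and 1 was higher, against 17.8% and 13.3% of all eligible genes. In subcluster 4, 1 of 5 was lower and 3 were higher, against 18.3% and 23.3%. In subcluster 5, 1 of 7 was lower and 1 was higher, against 15.5% and 21.1%, so the member counts there stood near those of all genes. Shares moved in steps. The smallest share above 0 in the library labelled depleted was 10% for subcluster 4 and between 3.1% and 4.8% for the others. A share in that library therefore rests on few cells in each subcluster, and on the fewest in subcluster 4. Of the 10 pairs past the limit, 2 differed by less than 2 of the larger steps and 5 by less than 3.

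**Figure D2:**
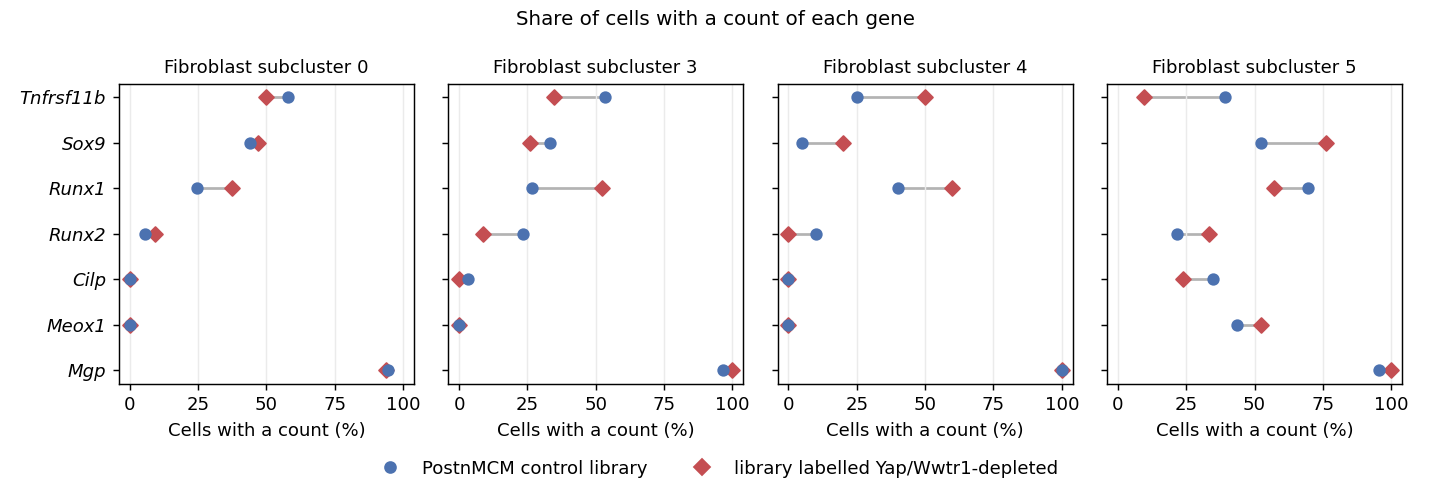
Share of cells with a count (%, x axis) of each of the 7 genes in the 4 fibroblast subclusters, with 1 circle for the control library and 1 diamond for the library labelled depleted, joined by a grey line. Mgp sat at 93.8% or more throughout, Cilp and Meox1 were near 0 outside subcluster 5, and Tnfrsf11b lay on opposite sides of the control in subclusters 4 and 5.

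Tnfrsf11b, the secreted decoy receptor, was the member with the widest gap between libraries, and that gap lay in subcluster 5, the group with the highest Postn share. There 39.1% of control cells and 9.5% of cells in the library labelled depleted had a Tnfrsf11b count, a 4.12-fold lower share (log2 ratio -2.04). Of the genes of that subcluster, 2.7% had a lower ratio. The 9.5% stood near the smallest share above 0 of that library in subcluster 5, 4.8%, so the ratio rests on few cells with a count. In subcluster 3 the shares were 53.3% in the control and 34.8% in the library labelled depleted, 1.53-fold lower and just past the limit. Subcluster 4 went the other way, with 25% of control cells and 50% in the library labelled depleted. In subcluster 0, the shares were 57.9% and 50%, a log2 ratio of -0.21 that did not reach the limit. In the control the order of the subclusters was therefore 0, 3, 5 and 4, and in the library labelled depleted subclusters 0 and 4 tied above 3 and 5. With no replicate, it is not known which neighbours in these orders differ beyond the spread between hearts.

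In subcluster 5 the lower Tnfrsf11b share went along with lower shares of epicardial and mesothelial markers. All 4 of the 8 such markers that reached the 10% share there were lower by at least 1.5-fold, against 15.5% of all eligible genes. The summed share of the 8 was 204 in the control and 47.7 in the library labelled depleted. Wt1 was at 73.9% and 14.3%, Dmkn at 52.2% and 14.3%, Krt19 at 34.8% and 9.5%, and Upk3b at 21.7% and 4.8%. Tcf21 stood at 43.5% of control cells and 81% in the library labelled depleted, Pdgfra at 87% and 81%, and Lum at 100% in both. In the other subclusters the summed epicardial shares were closer, at 595 and 647 in subcluster 0, 573 and 535 in subcluster 3, and 572 and 510 in subcluster 4. Whether a different mix of cells carried the Tnfrsf11b difference in subcluster 5 was not tested, and fewer cells with the gene cannot be told apart from fewer detected transcripts per cell.

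Tnfrsf11b was listed in 1 of the 18 cluster tables, that of the fibroblast cluster 5. These tables were limited by the authors to genes with a count in 25% or more of the cells of a library and with a log2 change of at least 0.25 in size, so a listed gene had to differ and an unlisted gene has no value. In cluster 5 the Tnfrsf11b share was 33.6% in the control and 12.3% in the library labelled depleted, 2.73-fold lower, and it reached 25% in the control alone. For cluster 5 as a whole, 13.9% of the 605 genes listed there were lower by at least 1.5-fold. The 5 epicardial markers listed for cluster 5 also had lower shares, as did 54% of the 605 genes listed there. Upk1b was at 54% of control cells and 26.2% in the library labelled depleted, Upk3b at 70.8% and 35.8%, Krt8 at 36.9% and 20.3%, Krt19 at 58.7% and 43.9%, and Dmkn at 75.5% and 68.4%. Pdgfra, a fibroblast receptor, was at 47.7% and 84%. Since subclusters 0, 2 and 4 held mainly control cells and subcluster 1 mainly cells of the mutant hearts, this cluster value compares different mixes of subclusters. From these shares, a change within cells cannot be told apart from that mix. In separate cultures of neonatal rat cardiac fibroblasts, the study described the response to siRNA against Yap and Wwtr1 as additive for Tnfrsf11b and synergistic for Mgp. Those cultures were not analysed here.

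The ligands of osteoprotegerin and the genes of the RANK pathway differed in how widely they were detected. Tnfsf11, which encodes RANK ligand, reached at most 4.3% of cells, and Tnfrsf11a, which encodes the signalling receptor RANK, at most 10%. Tnfsf10 (TRAIL) was at 2.5% of control cells and 20% in the library labelled depleted in subcluster 4, and at most 4.8% elsewhere. Of the 5 genes, those past the limit numbered 1 lower of 2 eligible in subcluster 0, 2 lower and 1 higher of 3 in subcluster 3, 3 higher of 3 in subcluster 4, and 0 of 2 in subcluster 5, beside the shares over all genes given above. Their median log2 ratios were -0.20, -0.94, 3.0 and -0.24, and those of all genes 0.00, -0.01, 0.06 and 0.05. The 3.0 was the ratio of Tnfsf10 alone. Its 2.5% was the smallest control share above 0 in subcluster 4, and that of the library labelled depleted was 10%, so this median lay near the floor. Traf6, an adaptor of the receptor, was at 14.5% and 9.4% in subcluster 0, 6.7% and 17.4% in subcluster 3, 17.5% and 40% in subcluster 4, and 17.4% and 14.3% in subcluster 5. The most widely detected of them was Nfatc1, a transcription factor downstream of RANK, with 21.4% and 25% in subcluster 0, 16.7% and 8.7% in subcluster 3, 2.5% and 30% in subcluster 4, and 43.5% and 38.1% in subcluster 5. Nfatc1 and Tnfrsf11b were both higher by the limit in subcluster 4 and both lower by it in subcluster 3. In subcluster 5 Tnfrsf11b was lower by the limit and Nfatc1 was not, and in subcluster 0 the genes lay on opposite sides of the control. Traf6 was higher by the limit in both subclusters 3 and 4. A link between these genes was not tested.

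Sox9 was detected in every subcluster of both libraries. In subcluster 5, 52.2% of control cells and 76.2% of cells in the library labelled depleted had a Sox9 count, a 1.46-fold higher share that fell just short of the limit. In subcluster 0 the shares were 44.1% and 46.9%, and in subcluster 3 they were 33.3% and 26.1%. Subcluster 4 had the lowest share in both libraries, at 5% and 20%. That 4.0-fold ratio was the member ratio furthest above 1, and the gap was less than 2 steps of the depleted shares. The subclusters kept the order 5, 0, 3 and 4 in both libraries.

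Other SOX factors and the RUNX partners were described as a list. Sox4, which acts in progenitor and mesenchymal cells, was found in 78.3% to 92.5% of control cells and 87.5% to 100% of cells in the library labelled depleted. Sox5, a partner of SOX9 in cartilage, passed the limit as higher in 3 of 4 subclusters, with 30.3% of control cells and 46.9% in the library labelled depleted in subcluster 0, 40% and 80% in subcluster 4, and 17.4% and 57.1% in subcluster 5. In subcluster 3 the Sox5 shares were 30% and 26.1%. Sox6, the related partner, was at 38.6% and 43.8% in subcluster 0, 23.3% and 17.4% in subcluster 3, 45% and 70% in subcluster 4, and listed at 0 in both libraries in subcluster 5. Of the 14 SOX and RUNX partners 11 were in the tables, and those past the limit were 1 lower and 1 higher of 9 in subcluster 0, 0 lower and 1 higher of 10 in subcluster 3, 1 lower and 6 higher of 11 in subcluster 4, and 2 lower and 2 higher of 8 in subcluster 5. Their median log2 ratios were 0.11, -0.04, 0.58 and 0.12 in that order, against medians over all genes of 0.00, -0.01, 0.06 and 0.05. Of all eligible genes 10.3%, 13.3%, 23.3% and 21.1% were higher and 11.1%, 17.8%, 18.3% and 15.5% lower. In subcluster 4 the smallest share above 0 in the library labelled depleted was 10%. Summed marker shares differed there too, at 240 and 120 for neutrophils, 348 and 280 for macrophages, 25 and 50 for mural cells and 35 and 50 for lymphocytes. Their part in the SOX and RUNX partner values was not tested.

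Cartilage matrix genes, among them targets of SOX9 in chondrocytes, had mostly lower shares in subcluster 5 of the library labelled depleted. Of 21 listed genes 9 were in the tables. In subcluster 5, 6 of the 9 reached the 10% share and 5 of these were lower by the limit, with a median log2 ratio of -0.87 against 0.05 over all genes. Of all eligible genes of that subcluster 15.5% were lower and 21.1% higher. Col11a1, a fibrillar collagen chain of cartilage, was at 43.5% of control cells and 23.8% in the library labelled depleted, and Comp, which binds collagen fibrils in cartilage and tendon, at 17.4% and 4.8%. Fmod was at 21.7% and 14.3%, and Matn4 at 13% and 0%. The smallest share above 0 in subcluster 5 was 4.3% in the control and 4.8% in the library labelled depleted. Apart from Col11a1, the lower genes therefore differed by few steps. In the same subcluster markers of other cell types moved too, in both directions. The summed share of the 4 mural cell markers was 56.5 in the control and 4.8 in the library labelled depleted, that of the 8 epicardial markers 204 and 47.7, and that of the 5 neutrophil markers 209 and 143, with S100a9 at 91.3% and 38.1%, Csf3r at 17.4% and 19% and Cxcr2 at 0% and 9.5%. The sum of the 6 macrophage markers was 278 and 191, with 4 of the 6 lower by the limit and 1 higher. The sum of the 6 lymphocyte markers was 21.6 and 33.4 and that of the 3 endothelial markers 8.6 and 14.3. Their part in the cartilage matrix values was not tested. The exception among the cartilage genes was Matn2, a filament-forming matrix protein and the most widely detected gene of the list, at 82.6% and 95.2%. In the other subclusters 1 gene each was lower and 1 higher, of 5 eligible genes in subcluster 0, 3 in subcluster 3 and 6 in subcluster 4, with median log2 ratios of -0.01, 0.38 and 0.16. All eligible genes were lower in 11.1%, 17.8% and 18.3% of cases and higher in 10.3%, 13.3% and 23.3% in the same order, so a count of 1 in each direction stood near them. Prg4, which encodes the joint lubricant lubricin, was the higher one in subclusters 0 and 3, at 18.6% and 50% in subcluster 0 and at 3.3% and 39.1% in subcluster 3, whereas it was at 32.5% and 30% in subcluster 4 and at 17.4% and 9.5% in subcluster 5.

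Runx1 was higher by the limit in 3 of 4 subclusters. In subcluster 3, 26.7% of control cells and 52.2% of cells in the library labelled depleted had a Runx1 count, a 1.96-fold difference (log2 ratio 0.97). The shares were 24.8% and 37.5% in subcluster 0, a ratio of 1.51, and 40% and 60% in subcluster 4, a ratio of 1.5 that stood at the limit. In subcluster 5 the shares were the highest of the control and lay in the other direction, at 69.6% and 57.1%, without reaching the limit. Outside the fibroblasts, Runx1 was listed in 1 cluster table, that of cluster 4, a T cell cluster by the study's names, where 24.5% of control cells and 41.3% in the library labelled depleted had a count. It was listed there through the library labelled depleted alone. That 1.69-fold ratio was past a limit reached by 36.2% of the 450 genes listed for cluster 4.

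Runx2, the osteoblast factor, was past the limit in 3 of 4 subclusters, lower in 2 and higher in 1. In subcluster 3 it was found in 23.3% of control cells and 8.7% in the library labelled depleted, a 2.68-fold lower share (log2 ratio -1.42). In subcluster 5 the shares were 21.7% and 33.3%, a 1.53-fold higher share just past the limit. In subcluster 4 the control share was 10% and the gene was listed at 0 in the library labelled depleted, a gap of 1 step of the depleted shares. Subcluster 0 stayed under the 10% share, at 5.5% and 9.4%. Runx1 and Runx2 thus lay on opposite sides of the control in subclusters 3, 4 and 5. Cbfb, the common partner of RUNX proteins, was at 76.7% and 60.9% in subcluster 3, 55% and 60% in subcluster 4, 73.9% and 42.9% in subcluster 5, and 46.9% and 53.1% in subcluster 0.

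**Figure D3:**
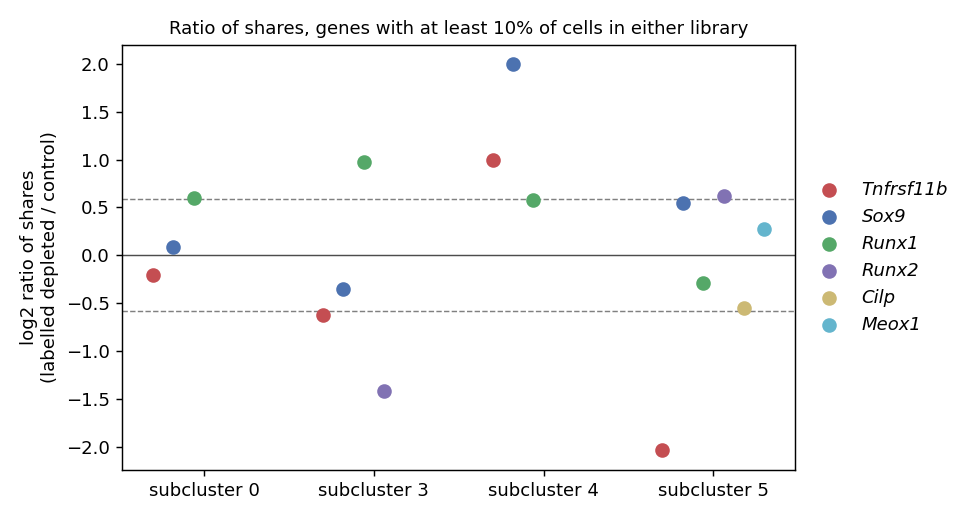
The log2 ratio of the share of cells in the library labelled depleted over that in the control (y axis) for 6 members in each fibroblast subcluster, for pairs with at least 10% of cells in either library, with dashed lines at a ratio of 1.5 in either direction. Tnfrsf11b runs from -2.04 in subcluster 5 to 1.0 in subcluster 4 and Sox9 reaches 2.0 in subcluster 4, while Mgp, near 100% of cells, and Runx2 in subcluster 4, listed at 0 in the library labelled depleted, are not drawn.

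Osteoblast and mineralization genes other than Runx2 were few in the tables, with 6 of 16 present. Alpl, the alkaline phosphatase of mineralizing cells, was at 30% of control cells and 8.7% in the library labelled depleted in subcluster 3. Its other shares were 2.8% and 6.2% in subcluster 0, 15% and 10% in subcluster 4, and 4.3% and 0% in subcluster 5. Atf4, a stress-responsive factor needed by osteoblasts and the most widely detected of the list, stayed between 71.9% and 91.3%. Spp1 was the single gene of the list lower by the limit in 3 subclusters. It encodes osteopontin, which macrophages also make. Its shares were 66.9% and 25% in subcluster 0, 60% and 43.5% in subcluster 3, 62.5% and 20% in subcluster 4, and 60.9% and 9.5% in subcluster 5. Spp1 was also at 84.5% of control cells and 51.8% in the library labelled depleted in macrophage cluster 0, and lower in 9 of the 9 clusters other than cluster 5 that listed it, where 48.5% of all listings were lower and where it reached 25% in the control alone in 5. Of the eligible genes, 1 of 3 was lower in subcluster 0, 2 of 5 in subcluster 3, 2 of 4 in subcluster 4 and 1 of 4 in subcluster 5, and 0 were higher. Over all eligible genes 11.1%, 17.8%, 18.3% and 15.5% were lower. The median log2 ratios were -0.25, -0.56, -0.25 and -0.21, and those of all genes 0.00, -0.01, 0.06 and 0.05. Each count rested on 5 or fewer genes and included Spp1 in subclusters 0, 4 and 5.

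Among the 4 subclusters, Cilp and Meox1 were found almost exclusively in subcluster 5. Cilp had a count in 34.8% of control cells and 23.8% of cells in the library labelled depleted there, a 1.46-fold lower share (log2 ratio -0.55) that fell just short of the limit. In subcluster 3 it was at 3.3% of control cells and listed at 0 in the library labelled depleted. In subclusters 0 and 4 it was listed at 0 in both. Meox1 had a count in 43.5% of control cells and 52.4% in the library labelled depleted in subcluster 5, a 1.2-fold ratio, and was listed at 0 in both libraries in the other 3 subclusters. The pattern over subclusters was thus alike for both genes, whereas the direction between libraries was not. Neither difference reached the limit.

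Late scar markers were spread over several subclusters. Of 15 genes 11 were in the tables, of which 3 (Angptl7, Thbs1 and Sfrp2) had been used by the study to describe subcluster 4 in these samples and are no independent evidence. Cilp2, Comp, Fmod and Prg4 were also in the cartilage matrix list. The late scar genes lower by the limit in subcluster 5 were Comp, Fmod and Prg4, so the lists do not count separate genes there. By the limit, 1 gene was lower and 4 higher of 10 in subcluster 0, 1 and 3 of 9 in subcluster 3, 0 and 1 of 10 in subcluster 4, and 3 and 1 of 9 in subcluster 5, with median log2 ratios of 0.42, 0.00, 0.08 and 0.00 beside 0.00, -0.01, 0.06 and 0.05 over all genes. Over all eligible genes 11.1%, 17.8%, 18.3% and 15.5% were lower and 10.3%, 13.3%, 23.3% and 21.1% higher. Clu, a secreted chaperone and the most widely detected of them, was at 100% of cells in subclusters 0, 3 and 4 and at 82.6% and 71.4% in subcluster 5. Ecrg4, which encodes a secreted peptide precursor, was higher by the limit in 3 subclusters, at 22.1% and 34.4% in subcluster 0, 20% and 30.4% in subcluster 3 and 34.8% and 71.4% in subcluster 5. Cilp2, the paralogue of Cilp, was listed at 0 in both libraries in subcluster 5 and was found in 13.8% of control cells and 18.8% in the library labelled depleted in subcluster 0, 3.3% and 8.7% in subcluster 3, and 5% and 20% in subcluster 4. Genes of the myofibroblast state, with all 10 in the tables, had 3 higher by the limit in subcluster 0, 2 lower in subcluster 3, 3 lower and 1 higher in subcluster 4, and 2 higher in subcluster 5. The shares over all genes are those given above for each subcluster. Col1a1, the most widely detected of the list, was at 100% throughout. Other genes of the list lay on different sides of the control. The smooth muscle actin gene Acta2 was at 31% and 59.4% in subcluster 0, 53.3% and 78.3% in subcluster 3, 32.5% and 40% in subcluster 4, and 47.8% and 76.2% in subcluster 5. Cthrc1, a secreted protein of activated fibroblasts, was at 44.8% and 34.4%, 46.7% and 21.7%, 70% and 10%, and 82.6% and 100% in the same order. Postn was at 25.5% and 28.1%, 40% and 13%, 10% and 20%, and 87% and 100% in that order.

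Mgp was near its ceiling in the fibroblast subclusters, and a share of cells cannot show a change of level there. It was found in 94.5% of control cells and 93.8% in the library labelled depleted in subcluster 0, 96.7% and 100% in subcluster 3, 100% in both in subcluster 4, and 95.7% and 100% in subcluster 5. In cluster 5 as a whole the shares were 93.6% and 96.3%. Vkorc1, which regenerates the vitamin K that activates MGP, was likewise at 95.2% or more in every subcluster. Ggcx, the carboxylase that modifies MGP, was at 33.3% to 52.2% of control cells and 37.5% to 61.9% in the library labelled depleted. Ank, which exports the mineralization inhibitor pyrophosphate or its precursor, was lower by the limit in 3 subclusters, at 12.4% of control cells and listed at 0 in the library labelled depleted in subcluster 0, 13.3% and 4.3% in subcluster 3, and 43.5% and 28.6% in subcluster 5. In subcluster 4, Ank was at 2.5% and 10%, higher by a gap of under 1 step. Of 9 genes of carboxylation and calcification inhibition 7 were in the tables, and of 6 eligible in each subcluster 1 was lower in every one and 1 was higher in subclusters 0, 3 and 4, with median log2 ratios of 0.07, 0.19, 0.00 and -0.02. Across subclusters 11.1% to 18.3% of all eligible genes were lower and 10.3% to 23.3% higher, so these counts stood near those of all genes.

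BMP signalling genes, which MGP can restrain by binding BMP ligands, showed no common direction. Of 19 genes 16 were in the tables, with 2 lower and 1 higher of 14 in subcluster 0, 2 and 0 of 16 in subcluster 3, 1 and 4 of 16 in subcluster 4, and 2 and 3 of 13 in subcluster 5. Over all eligible genes 11.1%, 17.8%, 18.3% and 15.5% were lower and 10.3%, 13.3%, 23.3% and 21.1% higher, so the counts were no result about BMP genes. The median log2 ratios were 0.03, -0.13, 0.19 and 0.13, and those of all genes 0.00, -0.01, 0.06 and 0.05. Id3, a target of BMP signals and the most widely detected of the list, was at 93.8% or more throughout. Id1, a related target, was at 66.2% of control cells and 40.6% in the library labelled depleted in subcluster 0 and at 56.7% and 26.1% in subcluster 3. It was at 87.5% and 60% in subcluster 4, and at 39.1% and 47.6%, in the other direction, in subcluster 5.

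Outside the fibroblasts, Mgp was listed in 8 of the other 17 cluster tables, and its share was lower in the library labelled depleted in all 8. In 7 of the 8 it reached the 25% needed for listing in the control alone, so those listings had to be lower and the count of 8 is a description, not support for a direction. Being listed in 9 of 18 tables was itself uncommon, since 1.62% of the 6477 genes found in any cluster table were listed in as many. Control shares in the 8 clusters ran from 25% to 45.3% and those of the library labelled depleted from 8.3% to 25.4%, so that a pair differed by 1.78-fold to 3.84-fold. In cluster 3 they were 44% and 24.2%, and in cluster 13 they were 45.3% and 25.4%, both macrophage or monocyte clusters by the study's names. In cluster 11, of the same class, they were 31.9% and 8.3%. The T cell cluster 8 had 33.3% and 12.5%, and cluster 9, which came mostly from the library labelled depleted, had 35.3% and 15.3%. In cluster 15, which the study left unidentified, they were 37.5% and 13.6%, in dendritic cell cluster 17 they were 25% and 9.1%, and in neutrophil cluster 18 they were 27.3% and 11.8%. Over these 8 clusters, 52.7% of the listed genes had a lower share in the library labelled depleted.

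Other fibroblast transcripts were also listed in immune clusters. Col3a1, a collagen gene that immune cells should lack, was listed in 9 clusters other than cluster 5 and lower in all 9, at 41.5% of control cells and 26% in the library labelled depleted in cluster 3 and at 36.4% and 5.9% in cluster 18. Over those 9 clusters 53.3% of all listings were lower, and in 8 of the 9 Col3a1 reached 25% in the control alone. Of 12 abundant fibroblast transcripts, 6 were listed outside cluster 5, in 26 listings of which 22 were lower in the library labelled depleted and 4 higher, and 14 of the 26 reached 25% in the control alone. The higher ones were 2 listings of Fn1 and 2 of Gsn, whereas Sparc and Igfbp4 were lower in 3 of 3 listings each and Dcn in its 1 listing. Of all listings in the clusters that listed each of the 6 genes, between 47.4% (Dcn) and 53.8% (Gsn) were lower. Fn1, Gsn and Igfbp4 are not limited to fibroblasts, with Fn1 at 93.2% of control cells in macrophage cluster 0, Gsn at 90% in dendritic cell cluster 17 and Igfbp4 at 64.8% in T cell cluster 4, and they made up 13 of the 26 listings. The part of free fibroblast RNA in the Mgp shares of immune clusters was not tested. The depth of the cells was not given in the tables.

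**Figure D4:**
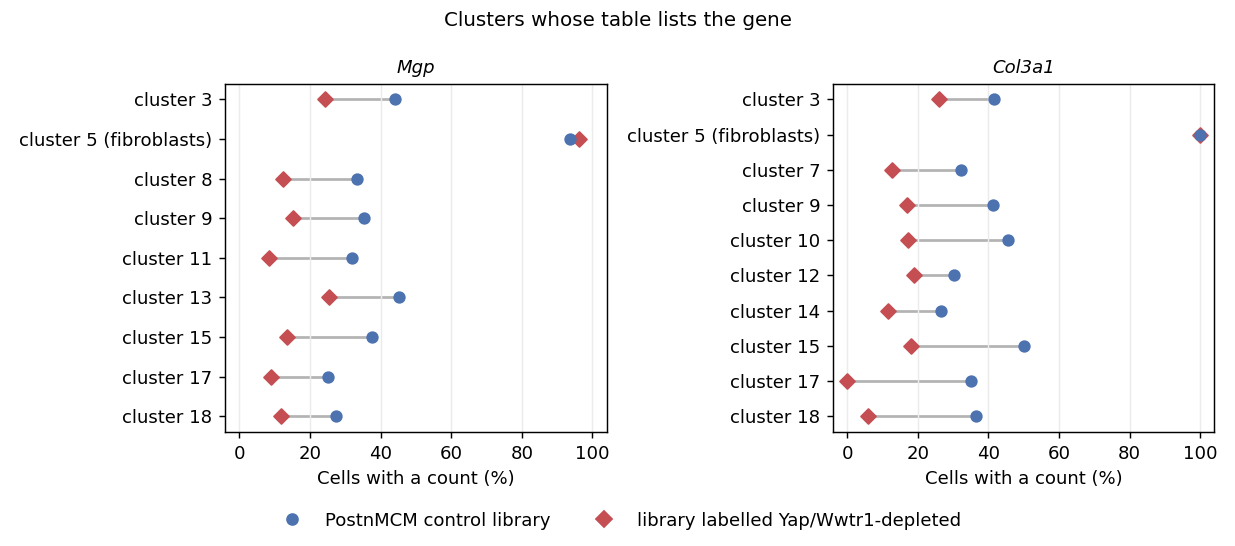
Share of cells with a count (%, x axis) of Mgp in the 9 clusters and of Col3a1 in the 10 clusters whose tables list them, with the control library as circles and the library labelled depleted as diamonds. Outside the fibroblast cluster 5, where both genes were at 93.6% of cells or more, each pair has its diamond to the left of its circle.

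The genes nearest to each member over the 8 shares (4 subclusters in 2 libraries) were found among all genes of the subcluster tables by the root mean square difference in percentage points. For Tnfrsf11b the nearest was Lrrn4cl at 4.59 points, with 43.5% of control cells and 4.8% in the library labelled depleted in subcluster 5, followed by Rab11fip5 at 7.38 and Adamtsl4 at 7.41. The nearest to Sox9 were Inhba, a subunit of activins, at 8.98, Pi16 at 10.4 and Baiap2 at 10.5 points. Runx1 had Rhbdf1 at 8.15, Gulp1 at 8.60 and Phf12 at 9.0. Runx2 had Gdf11, a ligand of the TGF-β family, at 4.15, Prelid2 at 4.57 and Gm52358 at 4.89. For Cilp they were Tmod2, an actin-capping protein gene, at 2.56, the forkhead factor Foxc2 at 3.13 and Smim41 at 3.83. For Meox1 they were Pla1a at 3.69, Ddah1 at 3.87 and Igsf10 at 4.15 points. Those of Mgp were housekeeping genes at the same ceiling, namely Mrps14 at 1.44, Cbx3 at 1.85 and Cct2 at 2.0. None of the 7 members was among the nearest 3 of another.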

How the data were processed

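Interstitial cells of 2 libraries, 1 per genotype, were captured with 10x Chromium V3.1 chemistry after sorting of live nucleated cells. Per the study's methods and the deposited code, the authors aligned reads with Cell Ranger 6.1.1 to GRCm39 with reporter sequences added, aggregated the libraries without depth normalization, and used Seurat to keep genes found in at least 20 cells, to normalize with SCTransform (regressing out the mitochondrial fraction) and to cluster. They then normalized and clustered the fibroblast cluster alone. No doublet caller was named. The deposited tables give, per cluster or subcluster, the fraction of cells of each library with an SCTransform value above 0, rounded to 3 decimals, which was read here as a percent. Columns of the authors' own comparison (fold change, p-value and adjusted p-value) were not used. By the deposited code, the libraries were compared in all clusters but 16 and in subclusters 0, 3, 4 and 5. Cluster names are the study's.

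From the fractions, ratios, differences in percentage points and counts past 1.5-fold (with 10% of cells in the higher library) were computed with Python 3.11.15, pandas 2.3.3 and numpy 2.4.6; the scripts were tested on simulated data. With 1 library per group no test was possible, so no p-value, standard error or interval was made. The study gives the cells per library and a mean read depth over both, but the depth of each library and the cells per subcluster were not given in the sources used here. The genes named were all members, in each list those past the limit in the same direction in at least 3 subclusters and the one with the highest mean share, and, for members reaching 25% of cells, the 3 nearest genes over 8 shares. Other list genes (such as Col11a1, Comp, Prg4, Alpl, Sox6, Id1, Cilp2, Acta2, Cthrc1, Traf6 and Cbfb) were named after their values were seen. The members, lists and limits were chosen with earlier results of these data known. Alternatives were other limits and minimum shares, odds ratios, differences in points, centring on the median of all genes and, chosen after seeing the data, leaving out subcluster 4.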

Additional observations from a re-analysis of the deposited data

Results flagged for a closer look

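Tnfrsf11b lay on opposite sides of the control in different subclusters, with log2 ratios of shares of -0.62 in subcluster 3 and -2.04 in subcluster 5 but 1.0 in subcluster 4. Runx2 did so between subcluster 3, at -1.42, and subcluster 5, at 0.62. With 1 library per genotype, the difference between subclusters was not tested for either gene. The smallest share above 0 in the library labelled depleted was 10% in subcluster 4, 4.3% in subcluster 3 and 4.8% in subcluster 5.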

How the results depend on the processing

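No paired analysis was possible because 1 library stood for each group, and leaving out a replicate was likewise not possible. The count of 4 lower pairs became 2 with a minimum share of 25%, and lay between 3 and 6 under the other alternatives. The count of 6 higher pairs became 2 with a fold limit of 2, 3 without subcluster 4 (an alternative chosen after seeing the data), and 4 to 7 otherwise. Centred on the median of all genes, Runx1 in subcluster 4 (0.52) and Runx2 in subcluster 5 (0.57) no longer reached the limit, whereas Cilp in subcluster 5 did (-0.60). By odds ratio or by a gap of 10 points, Sox9 in subcluster 5 was past the limit as higher (24.0 points), and Runx1 (-12.5 points) and Cilp (-11.0 points) as lower there. Mgp was lower in 8 clusters also when centred on the median of the genes listed in each cluster. It was lower by at least 1.5-fold in the same 8. In 7 of these 8 Mgp was listed through the control alone and had to be lower, so these alternatives cannot test the direction. Cell numbers per cluster and depth, which set the precision of a share, were not given in the tables.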

Other observations

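Partners of the RUNX factors were also listed in immune clusters, whose tables hold only genes past the authors' limits. Genes under 25% of control cells, such as Cbfb in clusters 8, 14 and 15 and Sox4 in cluster 4, were listed through the library labelled depleted alone, so those listings had to be higher. Cbfb was listed in 6 clusters other than cluster 5 and had a higher share in the library labelled depleted in all 6, from 45% and 45.5% in cluster 17 to 21.9% and 54.5% in cluster 15, and stood at 35.1% and 53% in macrophage cluster 0. Of all listings in those 6 clusters 47.6% were higher. Cbfa2t3, a co-repressor of the ETO family, was also higher in 6 of 6, at 27.6% of control cells and 47.4% in the library labelled depleted in cluster 0, against 46.5% of all listings in its clusters. Runx3, a factor of cytotoxic lymphocytes, was listed in 5 clusters and was lower in 2 and higher in 3. Of all listings in those clusters 49.8% were lower and 44.3% higher, so this count stood near them. It was at 68.4% and 61.5% in natural killer cell cluster 14, and at 49.5% and 67.9% in T cell cluster 7. Sox4 was higher in the 3 such clusters that listed it, with 6.6% of control cells and 44.8% in the library labelled depleted in T cell cluster 4, the cluster that also listed Runx1. Over its 3 clusters 48.8% of all listings were higher, but in cluster 4 only 22.9% of the 450 listed genes had a lower share, so a higher share was the common direction there. None of these differences was tested.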
